A study of Homo sapiens with 8 samples.

Results

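The genes described here are the secreted and receptor layer of the WNT pathway in human neural cultures: 19 WNT ligands, 10 Frizzled (FZD) receptors, 5 secreted Frizzled-related proteins (SFRP1, SFRP2, SFRP4, SFRP5 and FRZB) and 4 R-spondins (RSPO1 to RSPO4). They were chosen by name, as rows of the deposited matrix, by a rule that itself uses gene names and no measured value. The choice was made with earlier results of these data known. All 38 were found among 60286 genes. Each was set against culture tags, arrangements and marker-defined classes of cells. Over all 43693 cells 9 of the 38 lay under 1 CPM (counts scaled to a common library total), namely WNT1, WNT2, WNT6, WNT8A, WNT10A, WNT10B, FZD9, FZD10 and SFRP5, and their values say little at this depth.

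The study sequenced RNA from single cells of H1-derived neural cultures by split-pool barcoding, with dopamine, cocaine, morphine and no treatment named in the labels. H1 is an established human embryonic stem cell line, and every culture came from it. The 8 sublibraries are portions of a common pool, so cells were compared by the culture tag that each cell name carries. The 46 tags held 317 to 1959 cells and 3624668 to 58777178 counts each.

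Each tag joins letters for format, arrangement and treatment to a number, and these letters are printed as they stand because the labels do not define them. In flat culture, 2DMono had 2 tags each of AcDop, AcMor and Vehic, and 2DCocu had 4 tags each of AcCoc, AcMor and Vehic. In 3-D, 3DMono had 2 tags each of AcDop, AcMor and Vehic, and 3DFusi had 4 of AcCoc, 3 of AcMor and 3 of Vehic. Without a treatment word, there were 2 tags each of 2DProto2Fjo, 2DProto3Wu and 2DProto4Nic, and 3 tags each of 3DProto1For and 3DProto2Xia. The letters AcDop, AcCoc and AcMor resemble the named drugs and Vehic a vehicle, which the labels do not state. The labels do not say whether numbered tags are separate cultures, so p-values measure only the spread between tags. Papain dissociation of pooled pieces of a few organoids is described for 3-D, and the dissociation of flat cultures is not described. The labels give the cell type as embryonic stem cells, but the pluripotency genes POU5F1 and NANOG had medians of 0.732 and 0.401 CPM over tags and reached at most 1.56 and 1.07 CPM.

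Sublibraries held 5290 to 5602 cells each. Of 41192 barcodes, 2393 occurred on more than 1 cell (4894 cells), each time within the same tag and in different sublibraries. For 45 pairs of replicate tags the chi-square per degree of freedom ran from 5.43 to 157, so each pair differed beyond counting error.

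WNT ligands are lipid-modified secreted proteins that bind a Frizzled receptor together with a co-receptor. In the best-known branch this stabilises beta-catenin and switches on target genes, while ligands such as WNT5A are better known for beta-catenin-independent signalling. SFRP proteins and FRZB bind WNT ligands outside the cell, and R-spondins bind LGR receptors and keep Frizzled receptors at the surface. In the developing forebrain the cortical hem and the roof plate are dorsal midline sources of WNT ligands and R-spondins, and neural progenitors next to them carry the receptors.

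The promoters of 4 genes whose levels followed the dorsal midline or progenitor classes below are shown as examples, each as the 250 bases before the RefSeq start site (GRCh38.p14), 5′ to 3′ on the strand of the gene. RSPO1 lies at chr1:37634893-37635142 on the minus strand, WNT3A at chr1:228006748-228006997 on the plus strand, WNT8B at chr10:100462759-100463008 on the plus strand and FZD8 at chr10:35642297-35642546 on the minus strand. Capitals mark the GC box GGGCGG or its reverse complement, or the homeodomain core TAATTA.
RSPO1: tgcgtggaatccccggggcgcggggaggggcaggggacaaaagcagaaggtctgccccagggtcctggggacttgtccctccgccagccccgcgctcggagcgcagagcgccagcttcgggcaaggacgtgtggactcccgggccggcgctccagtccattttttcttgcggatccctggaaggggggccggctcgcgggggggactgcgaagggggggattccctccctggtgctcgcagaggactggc
WNT3A: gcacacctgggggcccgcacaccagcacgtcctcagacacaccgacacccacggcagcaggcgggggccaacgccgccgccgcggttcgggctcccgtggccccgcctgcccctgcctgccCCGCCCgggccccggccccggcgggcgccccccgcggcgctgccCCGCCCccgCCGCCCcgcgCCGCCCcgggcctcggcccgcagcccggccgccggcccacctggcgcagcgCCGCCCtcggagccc
WNT8B: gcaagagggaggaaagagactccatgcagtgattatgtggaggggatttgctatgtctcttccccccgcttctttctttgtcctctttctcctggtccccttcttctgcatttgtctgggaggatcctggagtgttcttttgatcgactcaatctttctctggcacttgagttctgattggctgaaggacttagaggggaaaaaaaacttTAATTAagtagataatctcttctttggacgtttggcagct
FZD8: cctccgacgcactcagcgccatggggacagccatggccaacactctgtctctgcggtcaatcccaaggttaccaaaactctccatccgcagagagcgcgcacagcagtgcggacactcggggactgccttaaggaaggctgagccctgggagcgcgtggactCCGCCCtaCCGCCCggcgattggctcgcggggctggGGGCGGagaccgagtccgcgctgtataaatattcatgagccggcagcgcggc
The WNT3A window was 86% G or C with 5 GC boxes, and the FZD8 window 65.2% with 3. The WNT8B window was 45.2% G or C and held 1 TAATTA, and the RSPO1 window was 70.8% G or C and held none of the motifs searched. Over RefSeq, 28 members had 31 such windows. A GC box was found in 25 of the 31, each of another member, against 42.6% of all 35116 windows of this length. TAATTA was found in 2 (WNT5A and WNT8B), against 4.35% of all windows. The TCF/LEF core CTTTGA, searched on both strands like the others, was found in 0, against 11.2% of all windows. The motifs do not overlap each other in letters, and a match or its absence describes these windows alone.

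Several members lie in pairs along a chromosome in GENCODE v29 (GRCh38). WNT9A (chr1:227918656-227947898, minus strand) neighbours WNT3A (chr1:228007051-228061260, plus strand), and WNT3 (chr17:46762506-46833154, minus strand) neighbours WNT9B (chr17:46833201-46886730, plus strand). In all, 14 members overlap another annotated gene, WNT5A with WNT5A-AS1, WNT2B with ST7L, WNT5B with FBXL14, FZD4 with PRSS23, FZD6 with BAALC-AS1 and SFRP4 with EPDR1 among them. The values of these members are uncertain to that extent, since the use of strand in counting is not given in the sources used here.

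Cells were grouped into 38 clusters without using any of the 38 members or 45 other WNT pathway genes, and 30 clusters were named from marker lists as 12 classes. The ending -like marks a name that rests on markers and nothing else. Levels by class are medians over tags with at least 20 cells of the class, given as a description without a test, and are compared within a gene and not between genes. The classes draw on different cultures, so an order of classes cannot be told apart from one of formats where their cells do not overlap. Roof plate or cortical hem-like cells numbered 1339 in 2DMono and 1813 in 2DCocu but 1 each in 3DMono and 3DFusi, and progenitor-like cells 13 and 0 but 981 and 666. Astrocyte-like cells numbered 224 and 98 in the flat arrangements and 0 in both 3-D ones.

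RSPO1, RSPO2, RSPO3 and a group of ligands had their highest medians in roof plate or cortical hem-like and choroid plexus-like cells. RSPO2 stood at 654 CPM in choroid plexus-like cells (range over 16 tags 137 to 1784) and at 586 CPM in roof plate or cortical hem-like cells (18 tags), against 6.57 CPM in excitatory neuron-like cells. These classes held 33.6% and 35.0% of all RSPO2 counts, with 3.23% and 7.24% of the cells. RSPO1, a close relative of RSPO2, had medians of 54.4 CPM in roof plate or cortical hem-like and 39.4 CPM in choroid plexus-like cells, and RSPO3 of 12.6 and 16.0 CPM. In every other class the medians of RSPO1 and RSPO3 were below 7 CPM. RSPO4 did not follow them, with its highest median in floor plate-like cells, at 11.5 CPM, and the next in glycinergic or PAX2 inhibitory neuron-like cells, at 8.12 CPM. The floor plate-like class was uneven for the others. Its cluster 37, singled out after its values were seen, held 219 cells and had the highest pooled RSPO2 and WNT3A levels of all clusters, at 1146 and 21.5 CPM. Over its 6 tags with at least 20 cells RSPO2 stood at 1029, 1166 and 1476 CPM (lowest, median and highest), and RSPO1 had a median of 65.2 CPM, against class medians of 115 and 6.52 CPM. Other classes were uneven for RSPO2 as well. It stood at 209, 319 and 433 CPM over 3 tags of the excitatory neuron-like cluster 22. In the mesenchymal-like cluster 20 it had a pooled 293 CPM. Both clusters were picked after their values were seen.

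Among the ligands, WNT8B, a gene known for expression at the cortical hem, followed the same classes, with 47.2 CPM in roof plate or cortical hem-like and 28.1 CPM in choroid plexus-like cells. WNT3A, a hem ligand needed for hippocampal growth in mice, had 11.8 and 7.40 CPM in them. WNT9A had 30.4 and 17.0 CPM (17.1 CPM in floor plate-like cells), and WNT2B 108 and 70.3 CPM, but WNT2B was spread more widely and held 42.7 CPM in GABAergic neuron-like cells. FZD6, a receptor better known for planar cell polarity, also had its highest median here, 91.7 CPM.

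Other classes carried other members. SFRP1, which binds WNT ligands in the extracellular space, had 192 CPM in progenitor-like cells (16 tags, 75.1 to 561) and 81.7 CPM in cycling-like cells, against 1.51 CPM in the roof plate or cortical hem-like cells, nearly all from flat culture, so class and format cannot be told apart here. The receptor gene FZD8 stood at 33.8 CPM in progenitor-like and 18.2 CPM in cycling-like cells. In progenitor-like cells RSPO2 had a median of 3.30 CPM, and RSPO1 of 0.

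Astrocyte-like cells, nearly all from 2DMono and 2DCocu, where WNT5A, SFRP4 and FZD3 were higher than in 3-D (below), so that class and format cannot be told apart, passed the cell minimum in 3 tags. They had the highest medians of WNT5A (67.8 CPM), SFRP4 (68.8 CPM), FZD3 (500.1 CPM) and WNT7A (44.7 CPM). WNT7A, a ligand with a role in brain vessel formation, was nearly as high in GABAergic neuron-like cells, at 44.3 CPM. WNT3 and WNT9B, the neighbours on chromosome 17, both had their highest median in floor plate-like cells, at 21.8 and 5.42 CPM. The WNT antagonist gene SFRP2 and the receptor gene FZD1 had theirs in mesenchymal-like cells, at 13.8 and 10.7 CPM, and 50.2% of SFRP2 counts came from that class.

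For none of the 38 members did the tags of the highest class lie apart from the tags of every other class. Among 72 pairs of a member and a class with a median of at least 20 CPM, FZD3 and WNT5B were each above it in 12 of 12 classes.

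**Figure D1:**
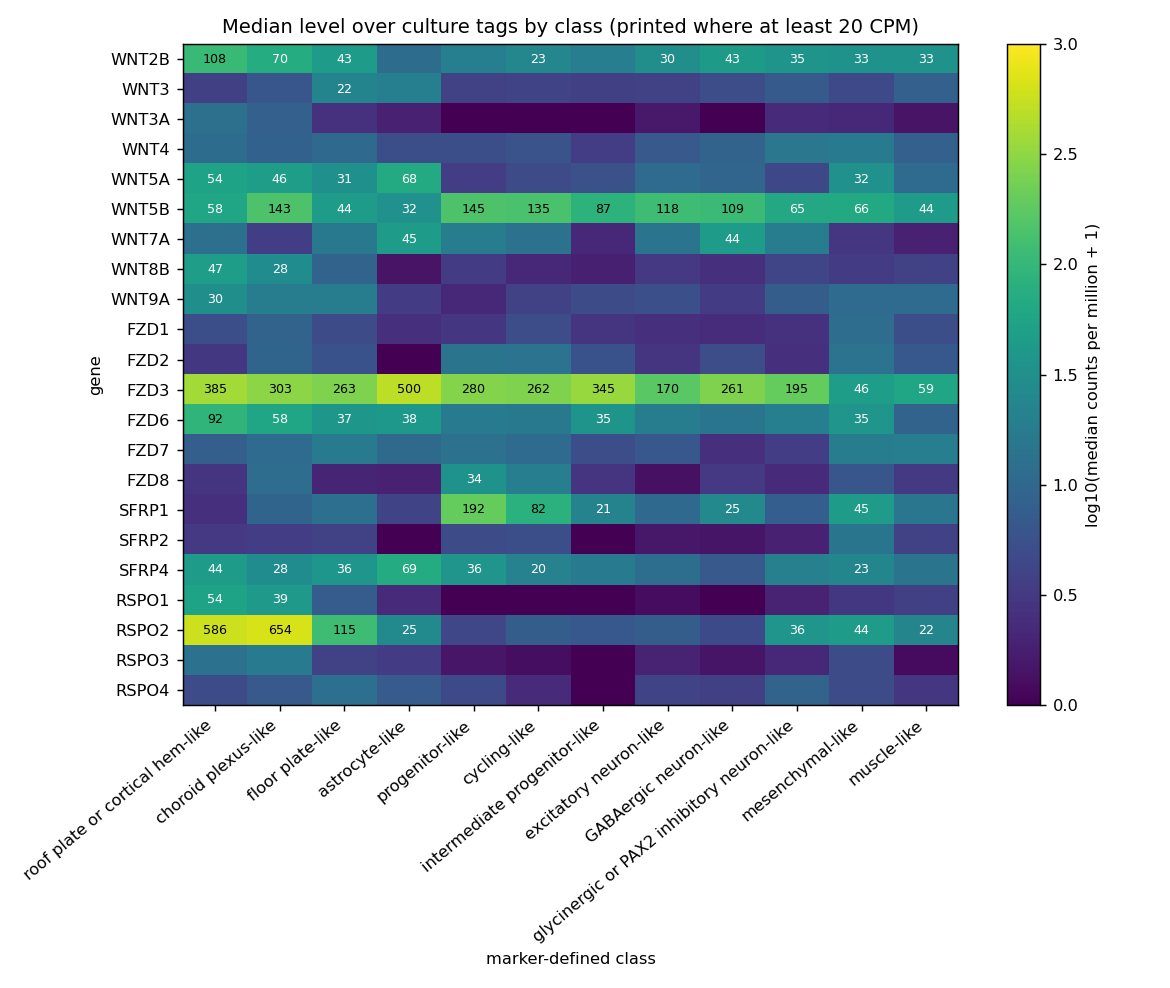
Median level of members over culture tags (rows) in each of 12 marker-defined classes (columns), as log10 of the median CPM plus 1, for members that reach 10 CPM in some class, with the median printed where it is at least 20 CPM. RSPO2, RSPO1 and WNT8B are brightest in the 2 leftmost columns, and SFRP1 and FZD8 in the progenitor-like column.

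The first question was how flat and 3-D cultures differ. Across the Mono pair, RSPO1, RSPO2, RSPO3, WNT3A, WNT5A, WNT8B and FZD6 were lower in 3DMono than in 2DMono, and SFRP1 and FZD8 were higher. Of 30 members tested 20 passed, 8 of them up and 12 down (edgeR quasi-likelihood test, adjusted p under 0.05 by Benjamini-Hochberg over all genes), where 38% of all 21862 genes tested passed. The median log2 fold change of the members tested was -0.20 and of all genes 0.03. Levels below are per tag, and where 3 levels are given they are those of the lowest, the median and the highest tag. In such sums over a tag, fewer cells of a type and less RNA per cell cannot be told apart.

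Among the ligands, WNT5A stood at 37.5, 42.2 and 48.8 CPM in the 6 tags of 2DMono and at 6.76, 8.86 and 13.4 CPM in the 6 of 3DMono. The groups did not overlap, and WNT5A fell by 2.40 on the log2 scale (SE 0.12, edgeR adjusted p = 5.33e-09). WNT8B went from 6.61, 14.8 and 25.9 CPM to 1.48, 4.44 and 5.51 CPM without overlap (log2 fold change -2.12, adjusted p = 4.24e-05). WNT3A went from 1.72, 2.76 and 3.43 CPM to 0.571, 1.01 and 1.52 CPM without overlap (log2 fold change -1.67). WNT2B (-1.07) and WNT9A (-0.91) also passed as lower. Ligands that passed as higher were WNT7B, with 0.734, 1.99 and 3.88 CPM in 2DMono and 3.99, 7.14 and 10.2 CPM in 3DMono (1.66), WNT10B (1.48), WNT16 (1.25) and WNT5B (0.47). The WNT16 call was lost in 6 of 12 omissions of a tag, and WNT10B lay under 1 CPM over all cells. The WNT5B groups did not overlap, at 63.1, 79.1 and 82.0 CPM against 113, 121 and 124 CPM, so this small change was even across tags.

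Receptors split in direction, with FZD6, FZD4 and FZD3 lower and FZD8, FZD2 and FZD7 higher in 3DMono. FZD6 stood at 65.3, 93.1 and 112 CPM in 2DMono and at 11.3, 19.9 and 23.2 CPM in 3DMono, a 5.67-fold difference without overlap (SE 0.13 on the log2 scale, adjusted p = 4.98e-09 by edgeR). FZD8 stood at 0.398, 1.59 and 1.92 CPM against 5.86, 10.8 and 19.2 CPM, 6.98-fold higher without overlap (SE 0.36 on the log2 scale, adjusted p = 3.47e-05). FZD2 went from 1.96, 2.37 and 4.22 CPM to 5.25, 6.97 and 11.4 CPM (log2 fold change 1.47). FZD7 (1.44) had overlapping groups, FZD4 (-1.28) and FZD3 (-0.67) had groups apart.

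Among the secreted modulators SFRP1 had the largest difference of all members, with 3.33, 6.87 and 8.20 CPM in 2DMono and 43.8, 71.1 and 149.8 CPM in 3DMono. This was 11.4-fold higher (3.51 on the log2 scale, SE 0.34, adjusted p = 4.55e-06 by edgeR), and every 3DMono tag lay above every 2DMono tag. SFRP4 was lower, with 24.8, 34.4 and 47.2 CPM against 13.6, 15.9 and 20.9 CPM (-1.29). The R-spondins passed as lower in 3 of 4 cases. RSPO2 stood at 190, 283 and 496 CPM against 22.0, 65.0 and 113 CPM without overlap (-2.39 on the log2 scale, adjusted p = 7.22e-06 by edgeR). RSPO1 stood at 5.43, 10.4 and 20.96 CPM against 0.504, 4.38 and 5.19 CPM (-1.86), also apart. RSPO3 (-1.08) had overlapping groups, and its call was lost without AcMor 2 or without Vehic 1 of 2DMono. Members that did not pass were WNT3, WNT4, WNT7A, WNT9B, WNT11, FZD1, FZD5, SFRP2, FRZB and RSPO4, with log2 fold changes from -0.62 (WNT7A) to 0.82 (SFRP2). The 8 not tested for low counts were WNT1, WNT2, WNT6, WNT8A, WNT10A, FZD9, FZD10 and SFRP5.

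The mix of cells differed between these formats. Roof plate or cortical hem-like cells made up 14.3% to 47.3% of a 2DMono tag (median 26.9%) and at most 0.0881% of a 3DMono tag, and progenitor-like cells at most 0.946% and 13.4% to 15.3%. Choroid plexus-like cells went the other way from the roof plate class, at most 1.17% in 2DMono and 0.870% to 6.39% in 3DMono. The 6 roof plate or cortical hem markers, all detected, summed to 268, 388 and 673 CPM in 2DMono and 132, 170 and 219 CPM in 3DMono, and the part of this mix in the results above was not tested on the sums. With the Vehic tags alone, 2 against 2, 13 members were called, where 14.4% of genes were, and SFRP1 had an adjusted p of 0.0556 (edgeR). FZD4, RSPO3, WNT5B, FZD7, WNT10B and WNT7B also lost their calls there. Tags of 3DMono with the same number had correlated deviations (0.0809 to 0.289), so p-values of the Mono pair may be too small. Sums by number were not made for it.

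**Figure D2:**
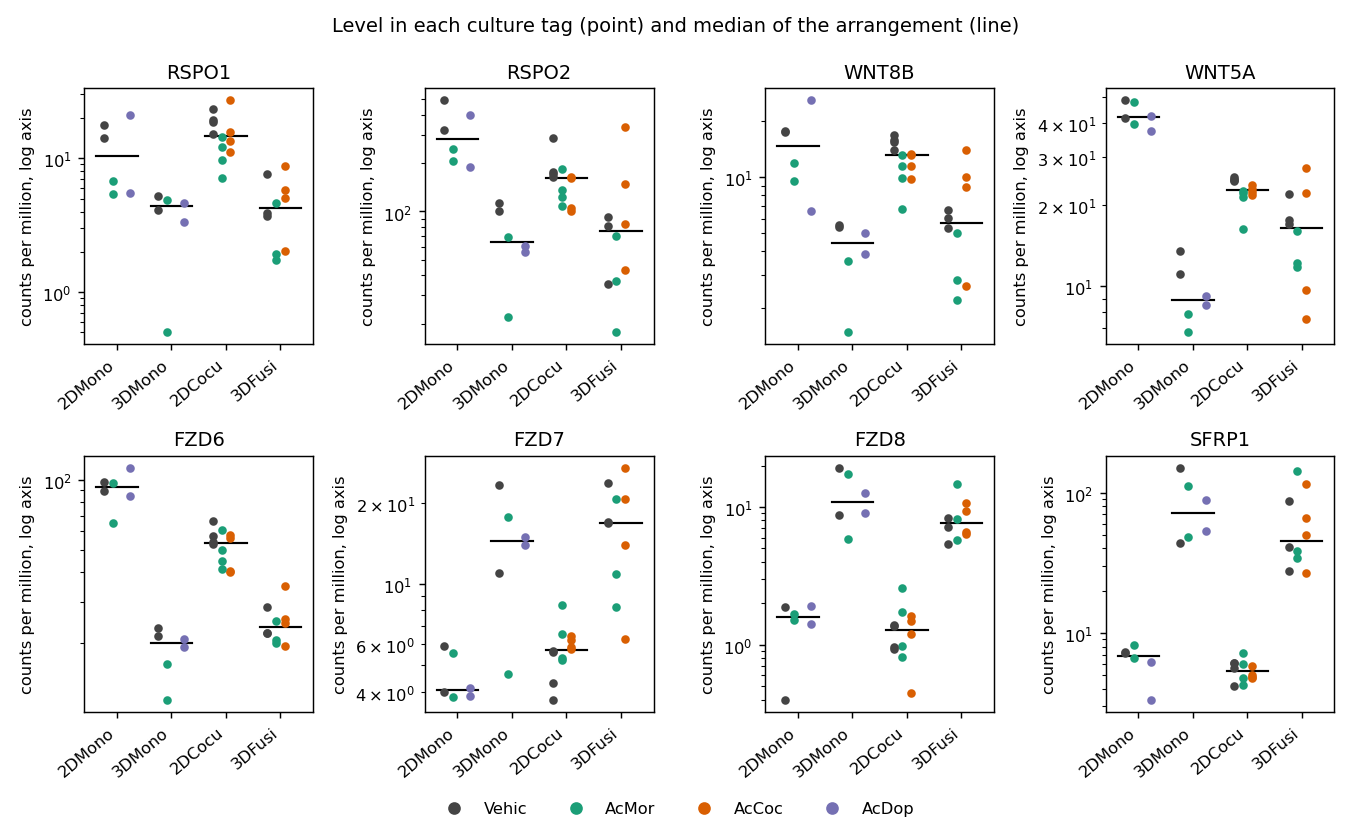
Level of 8 members in each culture tag (points, CPM on a log axis, coloured by treatment tag) in 2DMono, 3DMono, 2DCocu and 3DFusi, with the median of each arrangement as a line. SFRP1 and FZD8 are higher in every 3-D tag than in every flat tag of the same pair, and FZD6 is lower in every one.

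In the other pair, 3DFusi against 2DCocu, SFRP1 and FZD8 were again higher in 3-D and RSPO1, RSPO2, WNT9A and FZD6 lower. Of 31 members tested 22 passed, 10 of them up and 12 down, where 48.8% of 22510 genes passed (edgeR). The median log2 fold change was -0.01 for members and 0.04 for all genes. The pairs share no tags, and 16 members passed in both, 16 of the 20 called in the Mono pair and 16 of the 22 called here. All 16 had the same direction in both: SFRP1, FZD8, FZD7, FZD2, WNT7B, WNT10B and WNT16 were higher in 3-D, and RSPO1, RSPO2, WNT3A, WNT8B, WNT9A, WNT5A, FZD3, FZD6 and SFRP4 were lower. The WNT16 call of the Mono pair was lost in 6 of 12 omissions of a tag. Over all genes 5200 passed in both, 62.7% of those called in the Mono pair and 47.3% of those called here, and 93.2% of the 5200 had the same direction.

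Tags of 3DFusi with the same number deviated together from their group means, so the 10 tags are not fully independent and the p-values here and within classes are too small to that extent. With the tags of each number summed, 4 sums against 4, 19 members were called, where 28.8% of genes were. The calls of FRZB, FZD3 and WNT16 were lost and none was gained, and SFRP1 had an adjusted p of 0.00016 (edgeR).

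SFRP1 stood at 4.2004, 5.32 and 7.23 CPM in the 12 tags of 2DCocu and at 26.6, 45.4 and 143 CPM in the 10 of 3DFusi, 11.3-fold higher without overlap (SE 0.30 on the log2 scale, adjusted p = 3.27e-09 by edgeR). FZD8 went from 0.444, 1.29 and 2.604 CPM to 5.38, 7.62 and 14.8 CPM, also apart and 6.04-fold higher. SFRP2, not called in the Mono pair, went from 0.213, 1.12 and 1.61 CPM to 2.23, 6.70 and 21.7 CPM without overlap (2.54, adjusted p = 6.64e-07 by edgeR). Mesenchymal-like cells, the class with the highest SFRP2 median, made up 1.98% to 7.63% of a 2DCocu tag and 3.90% to 51.7% of a 3DFusi tag, and their part in this result was not tested on the sums.

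The receptor genes FZD1 (1.55), FZD7 (1.46), FZD2 (1.17) and FZD5 (1.11) passed as higher with overlapping groups. FZD1 stood at 1.40, 1.95 and 3.26 CPM in 2DCocu and 2.68, 6.06 and 13.1 CPM in 3DFusi. The ligands WNT10B (1.45), WNT16 (0.96) and WNT7B (0.68) passed as higher too, and WNT7B lost its call without AcCoc 1 or AcCoc 2 of 2DCocu or without Vehic 1 of 3DFusi.

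Of the members that were lower, WNT9A and FZD6 had groups that did not overlap. WNT9A went from 13.1, 16.7 and 30.3 CPM to 4.58, 6.05 and 12.3 CPM (log2 fold change -1.36, adjusted p = 1.04e-07), and FZD6 from 40.3, 53.4 and 66.7 CPM to 19.3, 23.2 and 35.1 CPM (-1.20, adjusted p = 7.26e-09, edgeR). RSPO1 went from 7.11, 14.7 and 27.2 CPM to 1.73, 4.27 and 8.71 CPM with overlap (-1.92). RSPO2 overlapped widely, with 100.1, 162 and 287 CPM against 17.7, 75.6 and 334 CPM (-1.05), and without a filter on low counts its adjusted p was 0.0535 (edgeR). WNT3A (-1.31), WNT8B (-1.21), WNT9B (-1.13), SFRP4 (-0.90), WNT3 (-0.88), WNT5A (-0.58), FRZB (-0.51) and FZD3 (-0.42) were the others.

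FRZB was the weakest of these, and 7 of 22 omissions of a tag ended its call. The roof plate or cortical hem class held 12.7% to 24.0% of the cells in 2DCocu tags but no more than 0.113% in 3DFusi tags, which was not tested as a part of these results. With the Vehic tags alone 15 members were called, where 28.2% of genes were (edgeR). FZD3, FZD5, WNT7B, WNT9B and FRZB were among the members that lost their calls there. The 9 that did not pass with all tags were WNT2B, WNT4, WNT5B, WNT7A, WNT11, FZD4, FZD10, RSPO3 and RSPO4, with log2 fold changes from -0.23 (FZD10) to 0.88 (WNT11). The 7 not tested were those of the Mono pair other than FZD10.

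**Figure D3:**
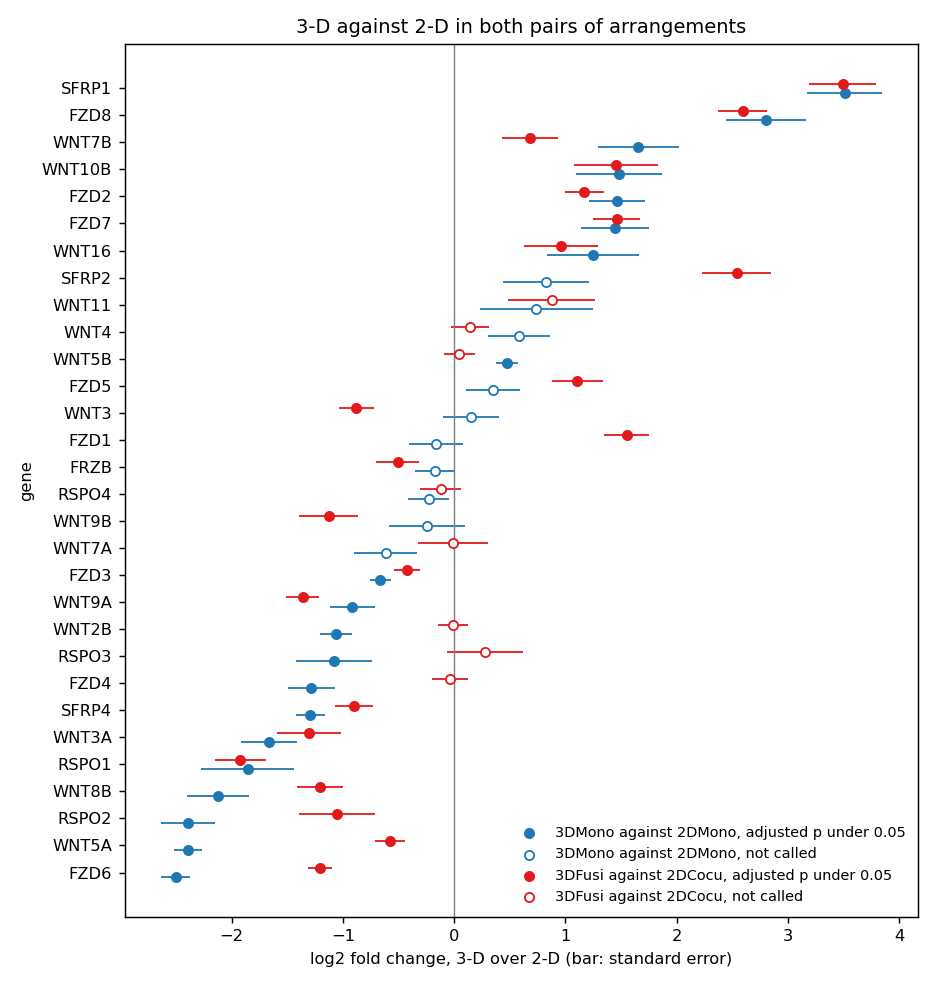
Log2 fold change of 3-D over 2-D for the 30 members tested in both pairs, with standard errors as bars, blue for 3DMono against 2DMono and red for 3DFusi against 2DCocu, filled where the adjusted p was under 0.05. SFRP1 and FZD8 lie far to the right in both pairs, and the points of WNT5A, SFRP2 and FZD1 lie farthest from each other.

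The 2 differences were then compared with each other in a single fit of the 34 tags of these 4 arrangements, each difference being taken over Vehic and AcMor. For 6 of 34 members tested the 3-D against 2-D difference itself differed between the pairs, where 6.68% of 24803 genes did (edgeR). WNT5A was 1.78 higher on the log2 scale in the Cocu and Fusi pair than in the Mono pair (SE 0.26, adjusted p = 6.05e-05), FZD1 1.74 higher (0.0103), FZD6 1.15 higher (0.00127), FZD4 1.08 higher (0.0457) and WNT2B 0.95 higher (0.0357), with adjusted p in brackets. WNT9A was the exception in sign, at -1.01 (0.0116). For WNT5A and FZD6 this meant a smaller drop in the Cocu and Fusi pair, and for FZD1 a rise there against -0.16 in the Mono pair. The FZD4 call was lost in 19 of 22 omissions of a Vehic or AcMor tag and the WNT2B call in 14 of 22, WNT9A without AcMor 1 and FZD1 without Vehic 1 of 2DMono. With Vehic and AcMor tags of a number summed, FZD4 (adjusted p = 0.132) and WNT9A (0.0831) lost their calls by edgeR, and 4.19% of genes were called.

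The 45 other pathway genes moved in both directions as well. In the Mono pair 23 of 40 tested passed, 8 higher and 15 lower, with a median log2 fold change of -0.26, where 38% of all genes passed (edgeR). WLS, which carries WNT ligands to the cell surface, was lowest (-3.27), from 360, 517 and 744 CPM in 2DMono to 33.5, 65.5 and 88.3 CPM in 3DMono, followed by DKK2 (-3.25), a secreted modulator of the co-receptor, and the R-spondin receptor gene LGR4 (-2.18). GPC3, a glypican of the cell surface, rose most (2.65), followed by NDP (1.65), a non-WNT ligand of FZD4, and DRAXIN (1.38).

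In the Cocu and Fusi pair 25 of 40 passed, 11 higher and 14 lower, where 48.8% of all genes did. GPC3 (2.13), LGR5 (1.58) and DRAXIN (1.35) rose most, and RNF43 (-1.43), LGR6 (-1.42) and LGR4 (-0.95) fell most. In the test of the differences themselves 6 of 44 passed, where 6.68% of all genes did, all higher in the Cocu and Fusi pair, DKK1 (4.01), DKK2 (3.12) and WLS (2.44) first.

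Within classes, SFRP1 passed as higher and FZD6 as lower in 3-D in 6 of 8 comparisons each (edgeR). Counts were summed per tag and class and tested in tags with at least 20 cells of the class, which allowed 4 classes in the Mono pair and 4 in the Cocu and Fusi pair. The same class name was mostly held by different clusters in the 2 formats, except that intermediate progenitor-like cells of the Mono pair were nearly all cluster 17 (333 of 335 cells in 2DMono and 169 of 171 in 3DMono). Excitatory neuron-like cells were mostly clusters 0 and 19 in flat culture (1124 and 530 of 1663 cells in 2DMono) and clusters 4 and 11 in 3-D (1331 and 784 of 2128 in 3DMono).

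In excitatory neuron-like cells SFRP1 and the receptor gene FZD7 were higher in 3-D and WNT5A lower, in both pairs. Of the members tested 10 of 17 passed in the Mono pair and 8 of 12 in the Cocu and Fusi pair, where 33.8% and 39.7% of all genes passed (edgeR). FZD7 stood at 1.10, 2.69 and 5.38 CPM in 2DMono and 7.94, 17.4 and 33.4 CPM in 3DMono, apart (log2 fold change 2.71, adjusted p = 6.16e-06). In the other pair it stood at 0.570, 2.28 and 3.47 CPM against 7.26, 30.2 and 54.1 CPM, apart (3.78, adjusted p = 1.79e-11).

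WNT5A in these cells went from 13.1, 29.3 and 36.9 CPM to 1.85, 3.03 and 6.35 CPM without overlap (-3.29) and, in the Cocu and Fusi pair, from 6.95, 15.1 and 21.9 CPM to 0, 2.26 and 10.2 CPM with overlap (-2.59). SFRP1 rose by 2.13 and 2.75 on the log2 scale with groups apart, and WNT7B, a ligand also made by cortical neurons, by 3.16 and 1.92. FZD6 (-0.88 and -0.74) and WNT5B (-0.55 and -0.80) passed as lower in both. FZD2 (2.09) rose, and SFRP4 (-1.12), RSPO2 (-1.77) and WNT3 (-0.80) fell, in the Mono pair. WNT2B (0.68) and FZD3 (0.23) rose in the Cocu and Fusi pair, and the FZD3 call was lost in 15 of 22 omissions of a tag. With tags of a number summed, FZD6 (adjusted p = 0.128), WNT5B (0.0659) and FZD3 (0.301) lost their calls in that pair and FZD1 gained one (edgeR).

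Markers of other cells were measured in the same sums, and their part in the results was not tested. In the Mono pair the 6 roof plate or cortical hem markers summed to medians of 27.7 CPM in 2DMono and 27.3 CPM in 3DMono, the 8 progenitor markers to 69.8 and 68.3 CPM, the 8 mesenchymal markers to 41.6 and 38.4 CPM, and the 8 choroid plexus markers to 28.3 and 38.1 CPM. In the Cocu and Fusi pair they summed to 12.9 and 19.1, 84.6 and 63.6, 70.0 and 48.5, and 19.1 and 31.2 CPM. The cycling markers summed to medians of 58.8 and 36.7 CPM in the Mono pair and 27.0 and 55.05 CPM in the other. Single 3DFusi tags reached 256 CPM for cycling and 237 CPM for progenitor markers. They reached 141 CPM for roof plate or cortical hem markers and 373 CPM for choroid plexus markers. The WNT3 call was lost in 10 of 12 omissions of a tag.

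In GABAergic neuron-like cells of the Mono pair 4 of 8 members tested passed, where 21.1% of genes did (edgeR). SFRP1 rose from 1.898, 6.99 and 15.3 CPM to 26.6, 34.7 and 51.5 CPM without overlap (2.01), and WNT5A (-1.71), RSPO2 (-1.57) and FZD6 (-1.28) fell. Most of these cells were cluster 25 in 2DMono (576 of 671) and cluster 1 in 3DMono (998 of 1022). The roof plate or cortical hem markers summed to 32.9 CPM in 2DMono and 72.6 CPM in 3DMono, and the progenitor markers to 228 and 149 CPM, and their part in the result was not tested.

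In cycling-like cells 3 of 16 passed, where 12.1% of genes did: WNT5B (1.42) and FZD7 (2.32) rose and FZD3 fell (-0.70). The WNT5B groups were apart, at 49.7, 63.1 and 67.2 CPM against 143, 167 and 187 CPM. In intermediate progenitor-like cells 3 of 6 passed, where 19.1% of genes did: SFRP1 (1.46) and WNT5B (0.71) rose and FZD3 fell (-0.81). The cycling-like cells were mostly cluster 15 in 2DMono (139 of 195) and cluster 16 in 3DMono (646 of 911), whose pooled levels were 106.9 and 164.9 CPM for WNT5B and 5.81 and 15.75 CPM for FZD7. For FZD3 they were 217.4 and 279.7 CPM, opposite in direction to its fall. The cycling-like FZD7 call was lost in 7 of 9 omissions of a tag, and the count was 1 without AcMor 2 of 2DMono and 6 without AcMor 2 of 3DMono. In intermediate progenitor-like cells 1 member was called without AcMor 1 of 3DMono and 2 without Vehic 1 of 3DMono. The share of all genes called in these omissions is not given here. Other markers moved in these classes too, without overlap. In cycling-like cells the 8 neuron markers summed to 2895, 3741 and 4294 CPM in 2DMono and 1480, 1547 and 2382 CPM in 3DMono, and the roof plate or cortical hem markers to medians of 139.9 and 198 CPM. In intermediate progenitor-like cells the 8 astrocyte markers summed to 1106, 1421 and 1814 CPM against 404, 491 and 535 CPM, and the progenitor markers to medians of 388 and 247 CPM. The part of these markers was not tested. WNT5B thus rose in these dividing classes of the Mono pair and fell in excitatory neuron-like cells. Whether the classes differ was not tested.

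Mesenchymal-like cells of the Cocu and Fusi pair had 13 of 25 members past the threshold, where 35.6% of genes passed (edgeR). SFRP1 rose from 1.88, 7.11 and 21.2 CPM to 34.4, 56.0 and 157 CPM (2.97, adjusted p = 3.21e-05), RSPO3 from 0, 0.620 and 2.69 CPM to 3.80, 6.19 and 16.5 CPM (2.70) and FZD7 from 5.20, 6.47 and 9.48 CPM to 17.4, 23.4 and 36.2 CPM (1.54), all 3 without overlap. SFRP2 (1.82), RSPO4 (1.68), WNT4 (1.17), FZD3 (0.94) and WNT2B (0.77) rose with overlap.

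FZD6, WNT5B and WNT9A fell without overlap. FZD6 went from 72.0, 96.5 and 115 CPM to 20.6, 28.2 and 45.3 CPM (-2.02) and WNT5B from 165, 200.3 and 272 CPM to 57.1, 64.5 and 75.5 CPM (-1.93). WNT9A (-1.93), FZD2 (-0.96) and SFRP4 (-0.96) fell too. The flat cells of this class were mostly cluster 29, led by CMKLR1, COL6A3 and FN1 (403 of 457 cells in 2DCocu), and the 3-D cells mostly clusters 8 and 21, led by IGF2 and LINC02147 (912 and 594 of 1892 in 3DFusi). Their 8 mesenchymal markers summed to a median of 10183 CPM in 2DCocu and 6232 CPM in 3DFusi. The astrocyte markers summed to 312, 363 and 435 CPM against 510, 639 and 1444 CPM, without overlap, and the roof plate or cortical hem markers to medians of 57.2 and 130 CPM. The progenitor markers summed to medians of 314 and 495 CPM and the cycling markers to 164 and 324 CPM, both with overlap. The part of these markers in the result was not tested. The WNT4, FZD3 and WNT2B calls were lost in 6, 10 and 9 of 16 omissions of a tag, and also with tags of a number summed (adjusted p = 0.187, 0.079 and 0.0916, edgeR).

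In glycinergic or PAX2 inhibitory neuron-like cells 10 of 15 passed, where 49.3% of genes did. SFRP4 fell from 18.9, 25.97 and 42.2 CPM to 0, 7.58 and 10.9 CPM without overlap (-1.97), and WNT9A (-1.19), FZD6 (-1.10), WNT5A (-1.003), WNT7A (-0.93), WNT3 (-0.86) and RSPO4 (-0.77) fell with overlap. WNT2B rose from 13.6, 21.3 and 25.6 CPM to 27.4, 50.6 and 78.6 CPM without overlap (1.03), and SFRP1 (1.14) and FZD3 (0.24) rose. Cluster 9 held most of this class in 2DCocu (1568 of 1612 cells) and cluster 2 in 3DFusi (632 of 640). The mesenchymal markers summed to a median of 162 CPM in the former and 60.3 CPM in the latter, and the astrocyte markers to 475 and 317 CPM without overlap, and their part was not tested. With called doublets removed the WNT5A and SFRP1 calls were lost. The FZD3 call was lost without a filter on low counts (adjusted p = 0.242) and with tags of a number summed (0.0684, edgeR), which gave 4 further calls.

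Floor plate-like cells had the largest R-spondin differences, and there the class differed in make-up. Of 21 members 7 passed, where 25.1% of genes did (edgeR). RSPO1 went from 26.6, 64.5 and 117 CPM in 2DCocu to 0, 1.55 and 7.62 CPM in 3DFusi (-4.49), WNT3A from 5.15, 19.4 and 26.7 CPM to 0.421, 1.13 and 2.14 CPM (-4.10), and RSPO2 from 1017, 1101 and 1434 CPM to 14.2, 79.6 and 398 CPM (-3.62), all 3 without overlap. WNT8B (-1.88), WNT9A (-1.87) and FZD6 (-1.70) also fell, and FZD7 rose (2.18).

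The 2DCocu cells of this class were cluster 37 (215 of 226) and those of 3DFusi cluster 6 (746 of 750). Cluster 37 was named from 3 of 6 floor plate markers, FOXA1, NTN1 and LMX1B, and SHH and SPON1 did not pass in it. Cluster 6 was named from 5 of 6, with SHH and SPON1 among them. The name is thus weak for the 2DCocu cells, and format and cluster cannot be told apart here. The 8 choroid plexus markers summed to 1159, 1810.2 and 2047 CPM in 2DCocu and 16.4, 28.9 and 54.3 CPM in 3DFusi. The 6 roof plate or cortical hem markers summed to 601, 731 and 1112 CPM against 164, 268 and 326 CPM. The 8 mesenchymal markers summed to medians of 2401 and 159 CPM and the astrocyte markers to 454 and 968 CPM, both without overlap, and the part of these cells in the result was not tested.

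**Figure D4:**
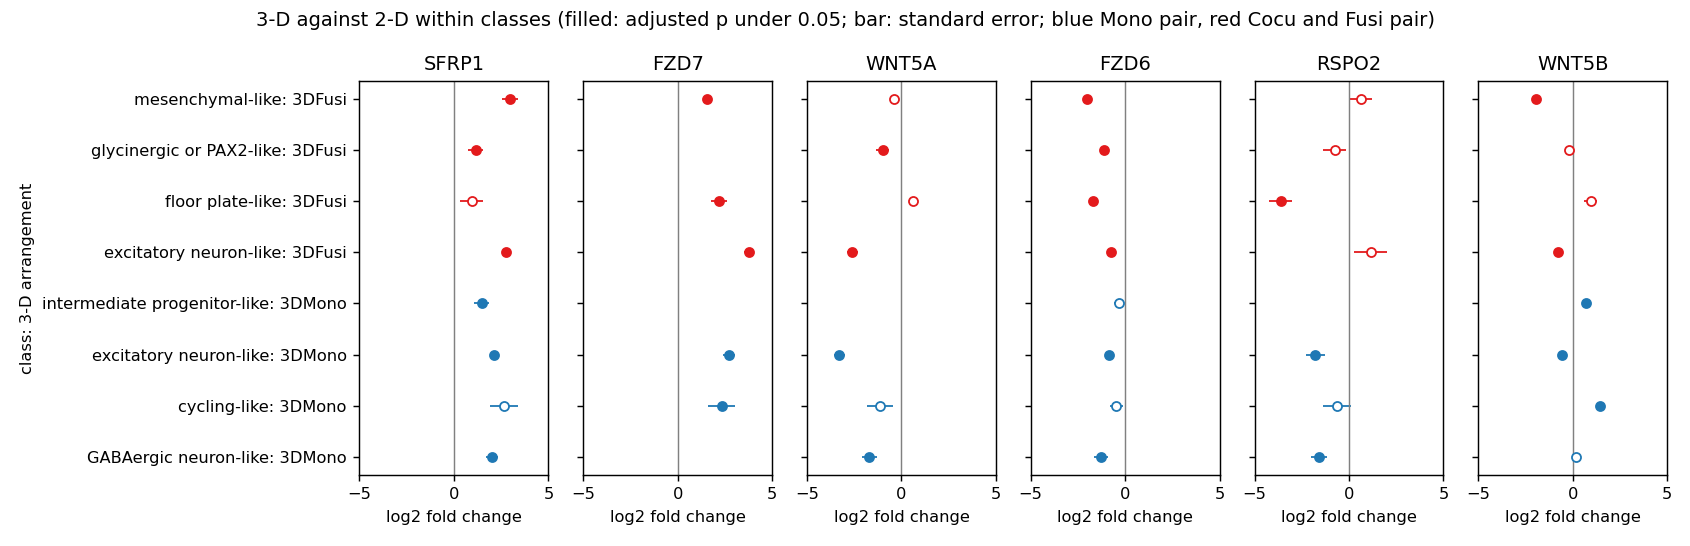
Log2 fold change of 3-D over 2-D within each class tested (rows) for SFRP1, FZD7, WNT5A, FZD6, RSPO2 and WNT5B (panels), with standard errors as bars, filled where the adjusted p was under 0.05, blue for the Mono pair and red for the Cocu and Fusi pair. The SFRP1 and FZD7 points all lie right of 0, the FZD6 points all left of 0, and the RSPO2 and WNT5B points on both sides.

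The flat arrangements differed from each other as well. Between 2DCocu and 2DMono, on their AcMor and Vehic tags (8 against 4), 16 of 29 members passed, 8 in each direction, where 29.9% of 21434 genes did (edgeR). Both are controls in the comparisons above, so these values are not independent of those. Higher in 2DCocu were FZD10 (2.30), WNT9B (1.94), WNT3 (1.37), WNT4 (1.17), WNT9A (1.16), FRZB (1.00), WNT3A (0.77) and RSPO4 (0.74). FZD10 stood at 0 to 0.429 CPM in these tags of 2DMono and 0.732 to 1.72 CPM in those of 2DCocu, levels that say little at this depth.

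WNT9B stood at 0.236, 0.673 and 0.858 CPM in 2DMono and 1.74, 3.06 and 3.57 CPM in 2DCocu, apart. WNT4, a ligand known from kidney and gonad development, stood at 2.43, 4.71 and 5.98 CPM against 8.33, 11.1 and 12.7 CPM, also apart. Lower in 2DCocu were FZD4 (-1.25), WNT5A (-1.09), RSPO2 (-0.98), WNT2B (-0.84), FZD6 (-0.80), FZD1 (-0.78), SFRP1 (-0.52) and FZD3 (-0.44). WNT5A stood at 39.6, 44.8 and 48.8 CPM in the 4 tags of 2DMono and 16.3, 23.5 and 25.3 CPM in 2DCocu, apart (adjusted p = 8.82e-08). The FZD1 call was lost without Vehic 1 of 2DMono, where its adjusted p was 0.39. SFRP1 was lost without AcMor 4 of 2DCocu or without AcMor 1, Vehic 1 or Vehic 2 of 2DMono.

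The unnamed cluster 3, led by ALDH1L1 and LINC02211 and picked after its values were seen, held 2196 of the 10414 cells in 2DCocu and 0 of the 4842 in 2DMono. Its pooled levels of WNT3 and WNT9B were 27.1 and 6.35 CPM, against medians over all clusters of 4.45 and 0.652 CPM. The part of this cluster in the results above was not tested. Of the pathway genes, 18 of 40 passed between 2DCocu and 2DMono, 5 higher and 13 lower, where 29.9% of all genes did, with DKK2 (-1.85), WLS (-1.37) and WIF1 (-1.01) lowest and ROR2 (0.97), NOTUM (0.92) and GPC3 (0.83) highest.

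Between 3DFusi and 3DMono no member of 33 passed, where 1.48% of 23861 genes did (edgeR). At an unadjusted p under 0.05 there were 7 members, and 17.9% of genes. DESeq2 called 4 members, and 6.56% of genes. The lowest adjusted p was that of WNT5A, with a log2 fold change of 0.66 (SE 0.16, adjusted p = 0.0616). Of the pathway genes 4 of 42 passed, all higher in 3DFusi, LGR5 (1.73), NKD1 (1.08) and LGR4 (1.05) first. Leaving out a tag gave at most 2 members.

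The next question was whether the treatments changed these genes. In 2DCocu, 2 of 29 members passed for AcCoc against Vehic, both lower, where 6.09% of 21032 genes passed (edgeR). WNT9A stood at 22.2, 23.8, 22.3 and 30.3 CPM in the Vehic tags and 17.1, 13.1, 14.1 and 13.4 CPM in the AcCoc tags. The groups did not overlap (log2 fold change -0.73, SE 0.14, adjusted p = 0.0075), and the call held in 8 of 8 omissions of a tag of these groups. WNT3 stood at 12.1, 13.2, 16.0 and 17.0 CPM against 10.4, 7.32, 7.52 and 8.73 CPM, also apart (-0.74, SE 0.20, adjusted p = 0.0354). Its call was lost in 5 of 8 such omissions, and with the tag number as a block its adjusted p was 0.0733.

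The mix of cells in 2DCocu moved with these treatments. Cluster 3 had pooled levels of 27.1 CPM for WNT3 and 25.1 CPM for WNT9A. It made up 28.3% to 35.9% of the cells in the Vehic tags, 12.2% to 16.4% in the AcCoc tags and 12.7% to 17.0% in the AcMor tags. Floor plate-like cells, the class with the highest WNT3 median, made up 2.76% to 4.01% in Vehic, 0.423% to 1.89% in AcCoc and 0.806% to 2.39% in AcMor tags. Cluster 3, which passed as many floor plate markers as cluster 37, is not counted among them. Cluster 37, which held most of them in 2DCocu, had the highest pooled WNT9A level of all clusters, 66.8 CPM. Excitatory neuron-like cells made up 4.78% to 11.03%, 26.1% to 36.8% and 26.3% to 29.7% in the same order. Roof plate or cortical hem-like cells had the highest WNT9A median of all classes. They made up 19.3% to 24.0% in Vehic, 12.7% to 17.1% in AcCoc and 12.99% to 16.9% in AcMor tags. The part of this mix in the WNT3 and WNT9A results was not tested on the sums. Within glycinergic or PAX2 inhibitory neuron-like cells WNT9A had a log2 fold change of -0.72 for AcCoc (SE 0.31, edgeR adjusted p = 0.255) and WNT3 one of -0.61 (SE 0.33, adjusted p = 0.382). For WNT9A within roof plate or cortical hem-like cells it was -0.22 (SE 0.19, adjusted p = 0.854).

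For AcMor in 2DCocu no member passed, where 0.975% of genes did (edgeR). At an unadjusted p under 0.05 there were 9 members, and 14.4% of genes. DESeq2 called 4 members, and 4.47% of genes. This comparison shares its Vehic tags with that of AcCoc. WNT9A had -0.55 (SE 0.14, adjusted p = 0.0696) and WNT3 -0.71 (SE 0.20, adjusted p = 0.0963) by edgeR. WNT9A stood at 16.3, 17.5, 14.6 and 16.4 CPM in the AcMor tags, all below the Vehic tags. Of 40 pathway genes 4 fell with AcCoc, TCF7L2 (-0.78), GPC4 (-0.74), LGR4 (-0.50) and TCF7L1 (-0.42), and 2 with AcMor, TCF7L2 (-0.62) and TCF7L1 (-0.51). Among all genes 6.09% passed for AcCoc and 0.975% for AcMor (edgeR). TCF7L1 and TCF7L2 encode transcription factors that bind beta-catenin.

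In the other arrangements neither a member nor any other gene passed for any treatment, where 0% of genes were called (edgeR). In 2DMono 0 of 26 members had an unadjusted p under 0.05 for AcDop and 8 for AcMor, where 2.42% and 6.42% of genes did. In 3DMono 0 of 32 did for AcDop and 7 for AcMor, where 3.35% and 8.71% of genes did, and in 3DFusi 1 of 33 for AcCoc and 0 for AcMor, where 1.66% and 0.748% did. DESeq2 called 0 members in these 6 comparisons, and in the same order 0.067%, 0.142%, 0.089%, 1%, 0.00423% and 0% of genes. The result for AcMor depended on the filter on low counts in the Mono arrangements. Without it edgeR called 4 of 38 members in 2DMono and 4 in 3DMono, where 0.46% and 1.81% of genes were called, and with it 2 of 32 in 3DMono without AcMor 2, where 1.7% were. The 2 tags per treatment in the Mono arrangements limit what could be seen. In 3DFusi WNT9A had 0.05 for AcCoc (SE 0.28), and its response was 0.81 higher than in 2DCocu (SE 0.29, unadjusted p = 0.00855, adjusted p = 0.706 by edgeR). No member passed that test of the difference for AcCoc, where 0.0121% of genes did, or for AcMor, where 0% did. At an unadjusted p under 0.05 there were 2 members and 5.94% of genes for AcCoc, and 0 members and 3.71% of genes for AcMor.

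Within classes of 2DCocu with at least 20 cells in every tag, 1 member passed. In glycinergic or PAX2 inhibitory neuron-like cells WNT5B, a ligand close to WNT5A, had a lowest, median and highest level of 89.1, 100.8 and 111 CPM in the 4 Vehic tags. It had 52.4, 64.2 and 68.3 CPM in the AcCoc tags (-0.73, adjusted p = 0.0274) and 42.8, 51.4 and 67.9 CPM in the AcMor tags (-0.91, adjusted p = 0.0218, edgeR). Both lay below Vehic without overlap, 1 of 15 members each, where 1.23% and 0.176% of genes passed. The calls were lost in 6 of 8 and 5 of 8 omissions of a tag of the groups compared. In excitatory neuron-like and roof plate or cortical hem-like cells 0 members passed for AcCoc or AcMor, where 0.124%, 0.0773%, 0.042% and 0.00701% of genes did.

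The last comparisons were between the protocol arrangements, each flat one against the mean of the other 2, with 2 tags apiece. These 3 comparisons share tags, and their counts moved widely when a tag was left out. Omissions below are of the 6 flat tags. Each leaves an arrangement with 1 tag, which is then assumed to vary like the other arrangements. In 2DProto2Fjo 8 of 33 members passed, where 4.94% of 25578 genes did (edgeR). WNT7B stood at 35.4 and 37.9 CPM in its tags against 2.07 to 4.03 CPM in the other 4, 11.1-fold higher (3.47 on the log2 scale, SE 0.25, adjusted p = 6.31e-05 by edgeR). WNT8B stood at 33.1 and 38.3 CPM against 4.17 to 5.87 CPM (2.78, SE 0.21). Both calls held in 6 of 6 omissions.

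RSPO3 (4.00), WNT3A (2.11), WNT8A (1.69) and WNT5B (1.04) also rose, and FZD5 (-3.06) and WNT2B (-0.97) fell, and each of these 6 was lost in 2 to 6 of 6 omissions. The WNT8A groups overlapped, with 1.219 CPM in a 2DProto2Fjo tag and 1.235 CPM in a 2DProto3Wu tag. FZD5 stood at 1.56 and 1.27 CPM in the 2DProto2Fjo tags and at 3.54 and 3.28 CPM in those of 2DProto4Nic. The mean it was set against was raised by 2DProto3Wu, at 40.2 and 32.4 CPM. Choroid plexus-like cells, highest in RSPO2 and RSPO3, made up 19.9% and 26.9% of the 2DProto2Fjo tags. Cluster 22, an excitatory neuron-like cluster with the highest pooled WNT7B level of all clusters (39.4 CPM), held 692 of its cells there out of 782. The part of these cells in the result was not tested.

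In 2DProto3Wu 11 of 33 passed, where 11.7% of genes did. FZD5 stood at 32.4 and 40.2 CPM against 1.27 to 3.54 CPM, 14.6-fold higher (3.87 on the log2 scale, SE 0.37, adjusted p = 0.000201 by edgeR), and WNT16 at 5.46 and 6.33 CPM against 0.424 to 0.989 CPM (2.96, SE 0.36). RSPO2 stood at 2.89 and 3.82 CPM against 156 to 633 CPM (-6.80, SE 1.77, adjusted p = 0.0411). The groups were far apart, yet the RSPO2 call was lost in 6 of 6 omissions.

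WNT7B (-2.38) fell as well and held in 6 of 6 omissions, and WNT8B fell (-1.41) with overlapping groups. The mean that WNT7B was set against was raised by 2DProto2Fjo, at 35.4 and 37.9 CPM. In 2DProto3Wu WNT7B stood at 2.07 and 2.97 CPM, close to the 3.48 and 4.03 CPM of 2DProto4Nic. RSPO3 (-4.53), FZD7 (-2.87), SFRP1 (-1.84), WNT3A (-1.79), WNT9A (-1.64) and FZD6 (-1.42) fell with groups apart. The calls of WNT8B and these 6 genes were lost in 1 to 6 of 6 omissions. GABAergic neuron-like cells made up 65.8% and 66.2% of the 2DProto3Wu tags. Of the pathway genes 9 of 43 passed, all lower, WLS (-5.09), DKK2 (-2.28) and NDP (-2.22) first.

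In 2DProto4Nic 14 of 33 passed, 9 higher and 5 lower, where 15.9% of genes did. SFRP1 stood at 31.1 and 42.9 CPM against 5.49 to 17.7 CPM (2.00 on the log2 scale, SE 0.36, adjusted p = 0.00432 by edgeR), and held in 6 of 6 omissions. FZD7 (2.06), SFRP5 (1.99), FZD2 (1.56), FZD1 (1.42), FZD6 (1.33), WNT9A (1.22), SFRP4 (1.21) and WNT2B (0.51) were higher. The WNT9A and WNT2B groups overlapped those of the other flat protocols. WNT2B stood at 53.4 and 69.22 CPM, against 68.15 and 79.59 CPM in 2DProto3Wu. WNT8A (-2.61), WNT16 (-1.61), WNT8B (-1.37), WNT5B (-1.17) and WNT7B (-1.09) were lower. The WNT16 and WNT7B groups overlapped those of the other flat protocols. WNT7B stood at 3.48 and 4.03 CPM, above the 2.07 and 2.97 CPM of 2DProto3Wu. WNT8B stood at 4.17 and 4.64 CPM, close to the 4.86 and 5.87 CPM there. SFRP5 and WNT8A lay under 1 CPM over all cells, so their values say little. The WNT8B call also held in 6 of 6 omissions, while the WNT2B, FZD1 and FZD6 calls were lost in 6 of 6. Each of the other calls in these lists was lost in 1 to 5 of 6 omissions.

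Mesenchymal-like cells, highest in FZD1 and SFRP2, made up 31.8% and 43.1% of the 2DProto4Nic tags. Of the pathway genes 13 of 43 passed, 12 higher and 1 lower, with WLS (4.13), WIF1 (3.59) and DKK2 (3.14) highest and DRAXIN (-1.24) lowest. In 2DProto2Fjo 1 of 43 passed, LGR4 (-1.22).

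The 3-D protocols 3DProto1For and 3DProto2Xia, 3 tags each, had no member and no other gene past the threshold, where 0% of 25578 genes were called (edgeR). At an unadjusted p under 0.05 there were 3 members of 33, and 13.7% of genes. DESeq2 called 0 members, and 0.446% of genes. RSPO2 ranged over 6.12, 47.7 and 74.3 CPM in 3DProto1For and 2.92, 9.52 and 109 CPM in 3DProto2Xia, so tags of the same protocol differed by more than the medians did.

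**Figure D5:**
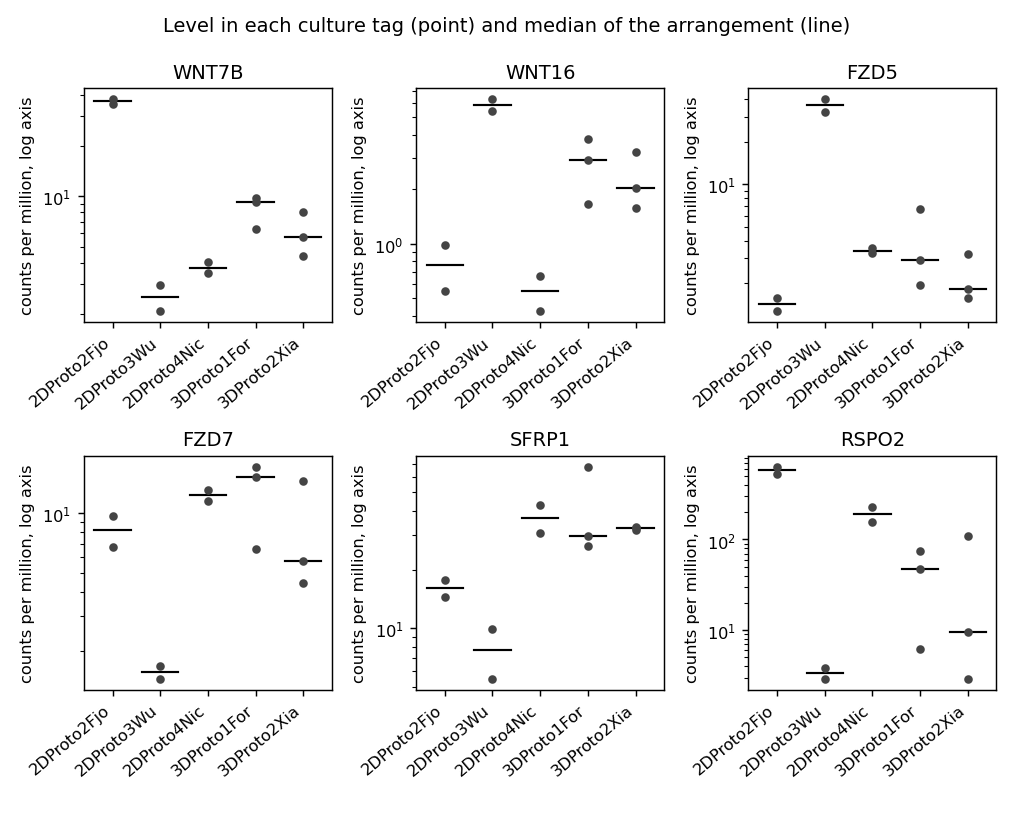
Level of 6 members in each culture tag (points, CPM on a log axis) of the 5 protocol arrangements, with the median as a line. WNT7B is highest in 2DProto2Fjo and FZD5 and WNT16 in 2DProto3Wu, where RSPO2, FZD7 and SFRP1 are lowest among the flat protocols.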

How the data were processed

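Single-cell RNA was measured in 8 sublibraries of pooled H1-derived cultures. The authors deposited estimated counts (expected counts) per gene and cell, made with Salmon 1.7.0, alevin and Seurat 4.1.1 on hg38 per the submitters' processing notes, with settings not given in the sources used here. The counts need not be whole, and 54.3% of the entries above 0 were stored as exact whole numbers (tolerance 0). Cells already had at least 1006 genes and at most 10.0% mitochondrial counts, and filters at 500 genes and 15% removed 0 cells.

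Counts were summed over the 46 culture tags in the cell names, rounded, and tested with edgeR 4.0.16 (quasi-likelihood, robust, filterByExpr, TMM) in R 4.3.3, with Benjamini-Hochberg adjustment over all genes tested and a threshold of 0.05. Treatment was a covariate in the comparisons of arrangements. CPM values scale counts to the total of a tag's or class's own sum, with no pseudocount. SE is the absolute log2 fold change over the square root of F. Alternatives were DESeq2 1.42.0 and its size factors, no filter on low counts, Vehic tags alone, the tag number as a block, called doublets removed, clustering at resolution 0.4, and leaving out each tag, which for the class results was added after seeing the data. The scripts were tested on simulated counts with known changes.

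Clusters were made with scanpy 1.11.5 and leidenalg 0.10.2 (2000 variable genes without the 38 members and 45 pathway genes, 30 components, 20 neighbours, resolution 0.8, seed 0). The rule that names a cluster (3 or more markers, and 40% or more of a list, each at least 2-fold higher and in at least 10% of cells) was set after clusters were seen. Where the 10 leading genes held more markers of another list, that list gave the name if it passed too. Otherwise the cluster stayed unnamed, as did clusters 3 (3 of 6 floor plate markers) and 31 (8 of 8 cycling markers). Cluster 13 was named choroid plexus-like from 4 of 8 markers, beside 4 of 6 roof plate or cortical hem markers. Doublets were called against simulated sums of cells (1268 cells, 2.90%) and kept. Only 33.4% of the simulated doublets lay above the threshold used, so many doublets of like cells would be missed.

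Levels are given for members past the threshold, at most the 8 with the largest change per direction and comparison, with the log2 fold change alone for the others, and for members with a class median of at least 20 CPM. Of the pathway genes the counts and up to 3 per direction are named, with TCF7L1 added after its values were seen. Members and lists were chosen with earlier results of these data known. Same-numbered tags of 3DFusi deviated together (correlations 0.147 to 0.620 in 9 pairs), so numbers were taken to pair tags there, and comparisons with 3DFusi were repeated on tags summed by number, without treatment, an alternative added after seeing the data. Tag counts of 4693413 or less in the smallest tags limit members near 1 CPM to a few counts.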

Additional observations from a re-analysis of the deposited data

Results flagged for a closer look

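In 6 of 142 sets of tags or sublibraries checked, 1 value lay far from the others, and chance flags about 1 in 20 sets. RSPO2 stood at 287 CPM in tag 4 of 2DCocu Vehic, where the other 3 tags had 165 to 177 CPM. RSPO4 stood at 7.33 CPM in tag 3 of 2DCocu Vehic against 5.69 to 5.83 CPM in the others, and at 6.98 CPM in tag 4 of 2DCocu AcCoc against 4.14 to 4.30 CPM. WNT7B stood at 2.95 CPM in tag 4 of 2DCocu AcMor against 4.84 to 5.17 CPM. Across sublibraries, which hold cells of the same pool, FRZB reached 9.03 CPM in sublibrary 3 against 6.87 to 7.77 CPM, and RSPO1 reached 12.1 CPM in sublibrary 6 against 10.2 to 11.1 CPM.

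The difference between 3-D and 2-D itself differed between the Mono pair and the Cocu and Fusi pair for 6 members by edgeR's test of the difference. On the log2 scale WNT5A was higher by 1.78 in the latter, FZD1 by 1.74, FZD6 by 1.15, FZD4 by 1.08 and WNT2B by 0.95, and WNT9A had -1.01. All 6 were also called between 2DCocu and 2DMono, where 29.9% of all genes were (edgeR). That difference is a part of this test, so the overlap is not a separate result. The same overlap over all genes is not given here. The median share of roof plate or cortical hem-like cells was 26.9% in 2DMono and 16.4% in 2DCocu, and its part was not tested.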

How the results depend on the processing

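Counts of members called moved by more than 1.5 times in these cases. With Vehic tags alone 13 members were called between 3DMono and 2DMono instead of 20. DESeq2 called 4 between 3DFusi and 3DMono and 4 for AcMor in 2DCocu, where edgeR called 0. Without a filter on low counts edgeR called 1 for AcMor in 2DCocu, 4 for AcMor in 2DMono and 4 for AcMor in 3DMono, where 0.921%, 0.46% and 1.81% of genes were called. Within classes it called 5 in cycling-like (5.74% of genes), 6 in intermediate progenitor-like (6.81%), 16 in excitatory neuron-like (3DFusi against 2DCocu, 16.7%), 15 in floor plate-like (12.4%) and 20 in glycinergic or PAX2 inhibitory neuron-like cells (22.1%). With tags of a number summed, counts moved by at most 1.5 times. They were 19 for 3DFusi against 2DCocu (28.8% of genes), 0 for 3DFusi against 3DMono (0.0787%) and 4 for the difference between the pairs (4.19%). Within classes 6 of 18 members tested passed in excitatory neuron-like (23% of genes) and 7 of 14 in floor plate-like cells (25%). In glycinergic or PAX2 inhibitory neuron-like cells 13 of 22 passed (39.2%), and in mesenchymal-like cells 9 of 21 (27.2%). With the tag number as a replicate block 1 member was called for AcCoc in 2DCocu, WNT3 being lost, and no other treatment call changed. Same-numbered tags did not deviate together in 2DCocu (correlations -0.384 to 0.126) or 2DMono (-0.152 to 0.186). In 3DMono they had 0.0809 to 0.289, and sums by number were not made for the Mono pair, so its p-values may be too small.

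Leaving out each tag in turn gave 18 to 21 members for 3DMono against 2DMono, 20 to 23 for 3DFusi against 2DCocu, 15 to 17 for 2DCocu against 2DMono, 0 to 2 for 3DFusi against 3DMono and 3 to 7 for the difference between the pairs. It gave 1 to 2 for AcCoc in 2DCocu, 0 to 2 for AcMor in 3DMono, 0 to 1 for either treatment in glycinergic or PAX2 inhibitory neuron-like cells, 2 to 12 for 2DProto2Fjo, 3 to 14 for 2DProto3Wu and 2 to 17 for 2DProto4Nic, where omissions of the 6 tags of 3-D protocols, which share the fit, are counted too. Within classes it gave 1 to 6 in cycling-like, 1 to 3 in intermediate progenitor-like, 3 to 5 in GABAergic neuron-like, 8 to 11 and 6 to 8 in excitatory neuron-like (Mono pair, then the other), 7 to 10 in floor plate-like, 9 to 11 in glycinergic or PAX2 inhibitory neuron-like and 10 to 13 in mesenchymal-like cells. The share of all genes called is not set beside these counts, so they describe only how steady the calls were. Of the calls of single members recomputed under these alternatives, 2765 stayed past the threshold in the same direction, 308 were lost and 0 reversed. Resolution 0.4 gave 78 pairs of a member and a class at or above 20 CPM, and removal of called doublets 70, against 72. The smallest tags held few cells of most classes, so low members went untested there, and the causes of the moves above were not tested.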

Other observations

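FZD5, which encodes a Frizzled receptor with a known role in the eye field, had its highest pooled level in an unnamed cluster. Cluster 27 held 666 cells, 636 of them from 2DProto3Wu, and stood at 61.8 CPM for FZD5 (95% Poisson interval of the counts 57.7 to 66.2 CPM, counting error only). The next cluster stood at 24.1 CPM and the median over clusters was 3.14 CPM. WNT16 was also highest there, at 9.32 CPM (7.76 to 11.1). FZD5 is among the 10 genes that lead the cluster, although the members took no part in the clustering, beside CLIC5, DLK1 and SFTA3.

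FRZB, first found in cartilage, was highest in cluster 35, at 30.7 CPM (26.3 to 35.8) over 275 cells. That cluster is led by ACAN, EPYC and COL2A1, genes of cartilage matrix, and 254 of its cells came from 3DFusi. WNT5B was highest in the choroid plexus-like cluster 13, at 259 CPM, a level pooled over tags, where 579 of 1412 cells came from 2DProto2Fjo. By medians over tags it was 145 CPM in progenitor-like and 143 CPM in choroid plexus-like cells.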
